A study of Homo sapiens with 2 samples.

Results

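OTX2 occupancy was examined at 47 genes of the WNT pathway, out of 19881 protein-coding genes of chromosomes 1 to 22, X and Y. The genes were chosen by name and role and by no threshold on a measured value, with earlier results of these data known. They comprise 18 WNT ligands, 12 receptors (10 frizzled genes with LRP5 and LRP6), 9 secreted antagonists (the DKK and SFRP genes with WIF1), 3 members of the β-catenin destruction complex (AXIN1, AXIN2 and APC) and 5 nuclear effectors (CTNNB1, which encodes β-catenin, LEF1, TCF7, TCF7L1 and TCF7L2). The ligand WNT1 was not among the genes chosen. All 47 chosen genes were found as protein-coding genes in the annotation.

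The material was D283, an established human medulloblastoma cell line with features of Group 3 and Group 4 tumors, grown as untreated, OTX2-positive tumorspheres, per the sample labels in a neural medium with EGF and bFGF. OTX2 is a homeodomain transcription factor of the developing brain. Chromatin bound by OTX2 was recovered with an antibody and sequenced (ChIP-Seq) in 1 library, and 1 input library without antibody served as background. There was no replicate and no OTX2-depleted sample, which leaves the values without replicate error and the comparisons without p-values. After duplicate removal the ChIP library held 61259377 fragments and the input library 22521186.

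WNT ligands are secreted, lipid-modified proteins. They bind a frizzled receptor and, in the canonical branch, an LRP5 or LRP6 coreceptor. Without a ligand, a complex built on AXIN and APC marks β-catenin for destruction. With a ligand, β-catenin accumulates, enters the nucleus and acts on DNA-bound TCF and LEF factors. Secreted proteins of the DKK and SFRP families and WIF1 can oppose the signal at the cell surface. The pathway patterns the embryonic midbrain and hindbrain, and its activation defines the WNT subgroup of medulloblastoma, to which Group 3 and Group 4 do not belong.

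The peaks are placed on GRCh38, and the sequences below are those of the RefSeq promoter table in GRCh38.p14. They show start sites where an OTX2 peak overlapped the promoter, with the 250 bases before the start site given on the strand of the gene, 5′ to 3′. Capitals mark TAATCC or TAATCT, the OTX2 motifs searched by the study, on either strand. FZD5 was chosen because, of the members whose strongest peak around the start of the gene record had its summit inside a tabulated promoter, it had the tallest. FZD1, the downstream APC promoter and the TCF7L2 start were chosen after their values were seen, the last as a 30-base stretch around the motif.

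FZD5, chr2:207769907-207770156, minus strand: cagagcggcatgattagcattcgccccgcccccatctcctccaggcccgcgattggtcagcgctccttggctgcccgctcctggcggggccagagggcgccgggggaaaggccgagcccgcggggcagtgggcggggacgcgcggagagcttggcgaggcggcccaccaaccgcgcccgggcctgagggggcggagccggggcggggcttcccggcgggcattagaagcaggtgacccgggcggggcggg
FZD1, chr7:91264183-91264432, plus strand: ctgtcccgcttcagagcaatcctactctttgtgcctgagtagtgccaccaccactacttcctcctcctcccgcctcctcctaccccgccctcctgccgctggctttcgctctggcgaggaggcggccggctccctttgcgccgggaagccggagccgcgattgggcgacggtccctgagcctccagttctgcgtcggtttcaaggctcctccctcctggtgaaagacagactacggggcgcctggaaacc
APC, chr5:112737635-112737884, plus strand: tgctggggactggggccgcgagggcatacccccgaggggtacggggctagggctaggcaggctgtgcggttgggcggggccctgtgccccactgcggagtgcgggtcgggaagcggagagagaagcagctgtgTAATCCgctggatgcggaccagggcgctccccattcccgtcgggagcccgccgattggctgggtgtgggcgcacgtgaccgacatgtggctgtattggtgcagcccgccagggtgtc
TCF7L2, chr10:112950240-112950269, plus strand: tcgccctgtcaaTAATCTccgctcccagac

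The FZD5 and FZD1 summits lay 80 bp and 70 bp upstream of the start sites, and neither stretch holds the letters TAATCC or TAATCT on either strand. At APC the TAATCC begins 117 bp upstream of the start site and the summit lay 318 bp upstream, so motif and summit were 201 bp apart. At TCF7L2 the TAATCT begins 5 bp downstream of the start site, under a peak whose summit lay 632 bp downstream. Tabulated promoters of WNT5B, WNT8B, SFRP2 and TCF7 also hold a motif, and no peak overlapped them. Peaks overlapped promoters of WNT2B, WNT5A, CTNNB1 and TCF7L1 and the upstream promoter of APC, which hold no motif. Of the 35116 promoters in the table, 12.8% hold either motif and 6.36% hold TAATCC, over a length of 250 bases before to 50 bases after the start. A promoter was tabulated for 33 of the 47 members (70.2%), under the 80% set as the minimum, so a share of members with a motif is void and is not given.

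OTX2 peaks near the start of the gene were common at the receptors and less common at the ligands and antagonists. A gene was counted if any peak shared 1 bp or more with the start window, which reaches 5 kb before and 2 kb past the 5′ end of its GENCODE record (TSS). Of the 47 members, 22 (46.8%) had such a peak, and 57.2% of the 19834 other protein-coding genes did. By role the counts were 9 of 12 receptors (75%), 2 of 3 destruction complex genes (66.7%), 3 of 5 nuclear effectors (60%), 3 of 9 antagonists (33.3%) and 5 of 18 ligands (27.8%). These are counts over small lists within 1 peak list, and the differences between roles were not tested. The receptors' share was above that of the ligands, and above that of other genes, in all 10 settings run for this count. These include the reported setting and another that changed only the comparison genes, where the order of receptors and ligands could not change. All settings used the same peak list. The shares of the other roles were less steady. With a −log10 q of at least 5, or with a fold enrichment of at least 5, 1 of 5 nuclear effectors (20%) and 1 of 3 destruction complex genes (33.3%) had a peak, against 52.1% and 38.5% of other genes. With RefSeq records, the start of any transcript or the canonical start, 4 of 5 nuclear effectors (80%) had one. The shares of other genes were then 57.8%, 66.7% and 58.6%. Within 1 kb of the TSS, 1 of 9 antagonists (11.1%) had one, against 46.9% of other genes.

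**Figure D1:**
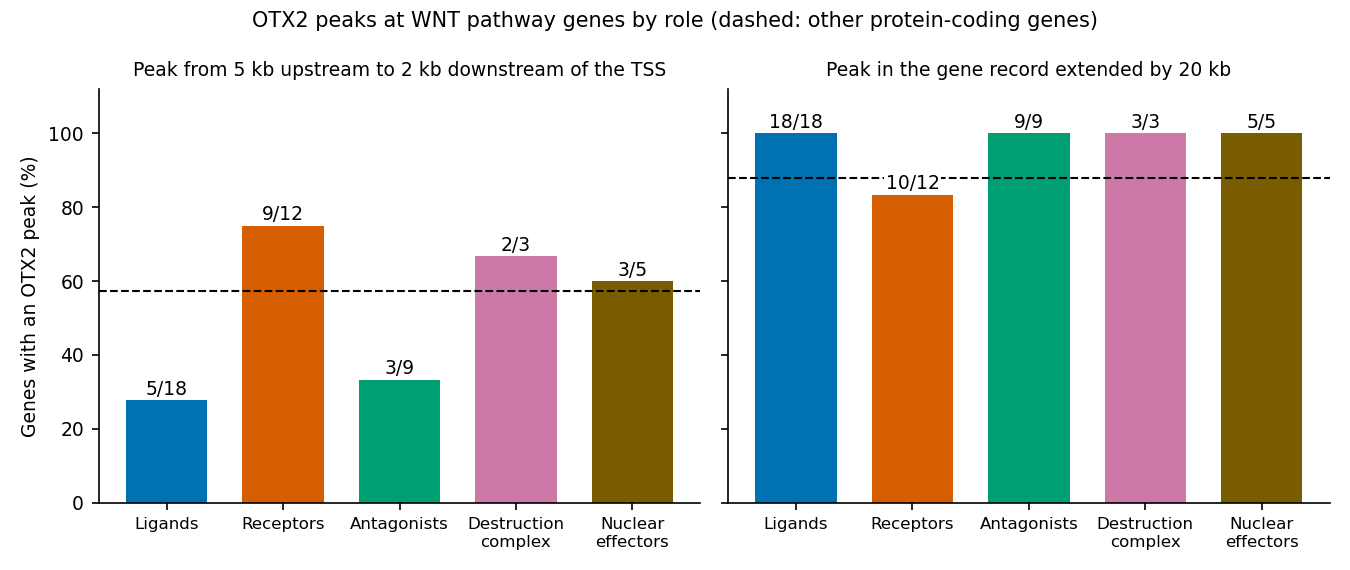
Percentage of WNT pathway genes with an OTX2 peak by role, in the start window (left) and in the gene record extended by 20 kb (right). Bars give the percentage, the labels the genes with a peak over all genes of that role, and the dashed lines the other protein-coding genes (57.2% and 88.0%). Receptors stand at 9/12 and ligands at 5/18 on the left, while all roles but the receptors reach every gene on the right.

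When the whole gene record was extended by 20 kb on either side, 45 of the 47 members (95.7%) had a peak, against 88.0% of other genes. All 18 ligands, 9 antagonists, 3 destruction complex genes and 5 nuclear effectors had at least 1. The 2 members without any were receptors, FZD9 and FZD10, whose nearest peaks lay 49.0 kb and 205 kb from the TSS. Here and below, the distance of a nearest peak is to its near edge, and other peak distances are to the summit. Peaks in an extended record can lie in a neighbouring gene. Without the extension, 25 members (53.2%) had a peak inside the record, and 69.5% of other genes did. The median record was 34434 bp long for the members and 27597.5 bp for other genes (the mean of the middle pair).

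Over the list as a whole, the median was 4.63 peaks per 100 kb of record extended by 20 kb at the members and 5.10 at other genes, whose middle range (25th to 75th percentile) ran from 2.32 to 8.48. The gap was wider with less flanking sequence, at 2.96 against 5.36 with an extension of 5 kb and 1.65 against 4.67 with none. The receptors had a median of 8.98 per 100 kb, the ligands 4.80, the destruction complex genes 4.10, the antagonists 2.99 and the nuclear effectors 2.85. The order changed without the flanks: inside the records alone, the median was 8.65 at the destruction complex genes, 3.06 at the nuclear effectors, 2.35 at the ligands and 0 at the receptors and antagonists. Among members with records over 60 kb, the median was 2.94 per 100 kb (n = 16) against 5.42 in other genes of that length, and among those under 20 kb it was 6.47 (n = 17) against 4.70.

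The strongest peak in the start window had a median height at the members near that at other genes. Height is given as the number of ChIP fragments over the summit, read back from the deposited pileup. Every pileup was a whole multiple of 0.735 within rounding, and 49.8% were odd multiples, so 1 such step was taken as 1 fragment. The median was 55 fragments over the 22 members with a peak (range 21 to 163) and 54 over other genes with a peak, with median fold enrichments over the local input of 7.02 and 6.28. A fold enrichment of at least 10 was reached by 3 of the 47 members (6.38%), FZD2, SFRP2 and WNT2B, and by 13.3% of other genes. A peak of 200 or more fragments in the start window was rare among other genes (416 of 19834), and no member had one. In the extended record 12 members had one (25.5%), among them FZD8, DKK3 and WNT5B, and 20.1% of other genes did. At FZD4, WNT6, SFRP1, SFRP2 and AXIN2 the tallest peak of the extended record was the 1 in the start window. This was not counted for other protein-coding genes, so it cannot be read as a trait of the members.

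**Figure D2:**
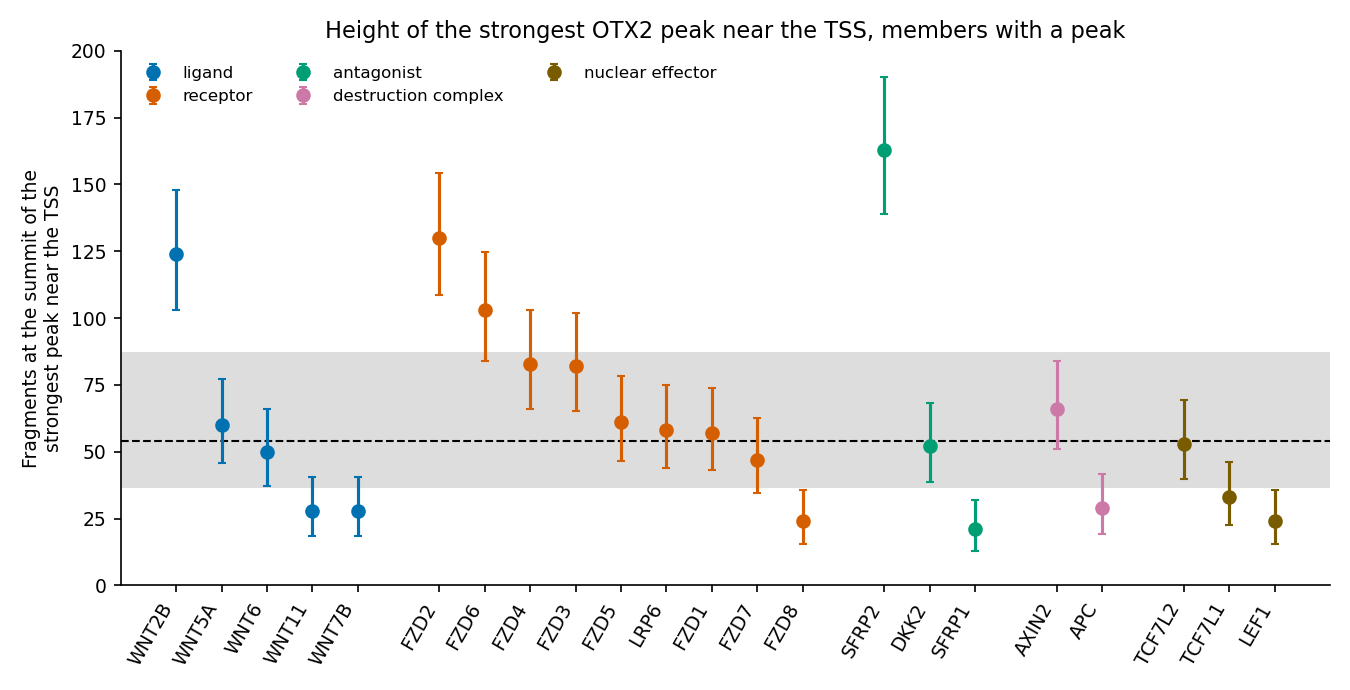
Fragments at the summit of the strongest OTX2 peak in the start window for the 22 members with a peak, colored by role. Error bars are exact 95% Poisson intervals of the fragment count, the dashed line and grey band are the median (54) and middle range (37 to 87) of other protein-coding genes with a peak. SFRP2, FZD2, WNT2B and FZD6 lie above the band, from 103 to 163 fragments.

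Frizzled genes encode the cell surface receptors that WNT ligands bind, and 8 of the 10 had a peak in the start window, with 15 peaks in all. Their records are short (median 5740.5 bp, the mean of the middle pair), yet 8 of the 10 lay above the median of all protein-coding genes in peaks per 100 kb. FZD2, at chr17:44557484-44561262 on the plus strand, had the tallest peak of the receptors near the start, with a summit 319 bp upstream of the TSS. This peak, from 44556595 to 44557454, had 130 fragments (exact 95% Poisson interval 109 to 154, counting error only), 13.8-fold enrichment and a −log10 q of 75. All 5 FZD2 peaks lay upstream of the gene, and the tallest, 15.4 kb upstream, reached 250 fragments and a fold enrichment of 30.1.

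FZD6, at chr8:103298433-103332866 on the plus strand, followed with 103 fragments (84.1 to 125) 1193 bp downstream of the TSS, in intron 1 of the canonical transcript. Its fold enrichment was 5.12, lower than at FZD4 with fewer fragments, and the local input implied by the pileup and fold was 14.0 at FZD6 and 7.0 at FZD4. A second FZD6 peak lay in exon 2, with 67 fragments and a fold enrichment of 2.61. FZD4, at chr11:86945679-86955395 on the minus strand, had 3 peaks in the start window. Their summits lay 509 bp, 2146 bp and 5178 bp upstream, with 83 fragments (66.1 to 103), 72 and 46.

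FZD3 had 82 fragments 3882 bp upstream of the TSS, in a peak that also lay in the start window of FBXO16, the only member of the 22 whose strongest peak was shared in this way with another protein-coding gene. FZD5 had 61 fragments 80 bp upstream, in a broad peak of 1357 bp that covers the promoter sequence shown above. FZD1 had 57 fragments 70 bp upstream and a fold enrichment of 8.61. The Poisson intervals of these last 2 counts, 46.7 to 78.4 and 43.2 to 73.9, overlap. FZD7 had 47 fragments 1012 bp upstream and FZD8 24 fragments 1039 bp upstream, with fold enrichments of 2.96 and 2.66.

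FZD5 and FZD7 stood out for the number of peaks around short genes rather than for the peak at the start. FZD5 is 7.31 kb long and had 14 peaks in its extended record, 29.6 per 100 kb, at percentile 99.9 of protein-coding genes. Of these, 6 lay upstream, 6 downstream and 2 in exon 2. The tallest had 223 fragments 10.9 kb past the TSS and the next 155 fragments 6059 bp upstream. FZD7 is 4.59 kb long and had 10 peaks, 22.4 per 100 kb, at percentile 99.5, and the tallest reached 165 fragments 10.1 kb upstream and the next 145 fragments 6423 bp past the TSS. FZD8 had 6 peaks, 13.6 per 100 kb. Its tallest, at chr10:35626430-35627887, 15.1 kb past the TSS and beyond the 3′ end, had 350 fragments (314 to 389) and a fold enrichment of 43.1. This was the tallest peak of all members and stood at percentile 98.1 of genes ranked by the tallest peak of the extended record.

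Of the LRP coreceptors, which canonical WNT signals need beside a frizzled, LRP6 had a peak at the start and LRP5 did not. LRP6 had 58 fragments (44 to 75) 195 bp upstream of the TSS, with a fold enrichment of 8.73. It had 18 peaks in its extended record, 15 of them in introns. The nearest LRP5 peak lay 5.18 kb upstream, just beyond the window, with 29 fragments. LRP5 had 0 peaks inside its 137 kb record and 5 in the extended one, against 16 inside the 151 kb record of LRP6.

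**Figure D3:**
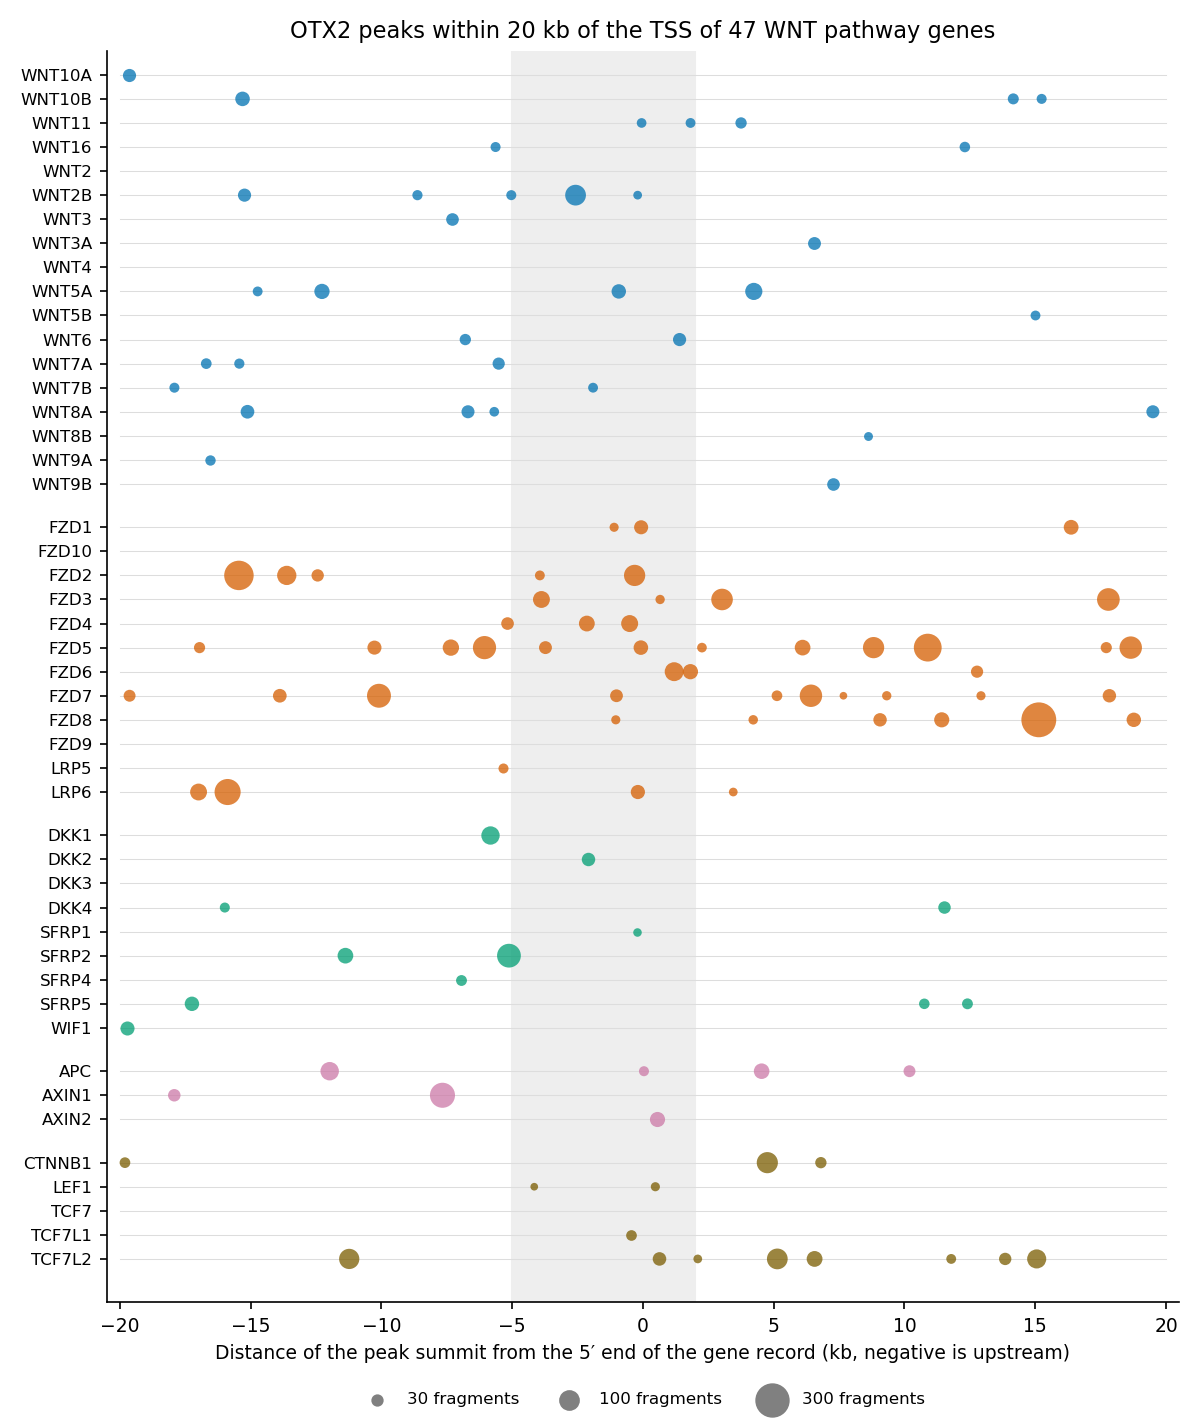
OTX2 peak summits within 20 kb of the TSS of each of the 47 WNT pathway genes, grouped and colored by role. The x axis is the distance from the 5′ end of the gene record in kb (negative is upstream), point area is proportional to the fragments at the summit, and the grey band is the start window. Peaks crowd around FZD5 (12 within 20 kb) and FZD7 (10), and WNT2, WNT4, FZD9, FZD10, DKK3 and TCF7 have none in view.

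Among the ligands, the secreted proteins that start the signal, 13 of 18 had no peak in the start window. WNT2B, at chr1:112466541-112530165 on the plus strand, was the strongest of the 5 that did. It had 3 peaks, and the tallest, from 112463793 to 112464189, had 124 fragments (103 to 148), 11.5-fold enrichment and a −log10 q of 64.6, 2577 bp upstream of the TSS. This peak belongs to the start of the gene record, and around the canonical WNT2B transcript, which begins 42.4 kb downstream, there was no peak in the same window. WNT5A, a ligand best known for β-catenin-independent signaling, is at chr3:55465715-55490539 on the minus strand. It had 60 fragments (45.8 to 77.2) 925 bp upstream of the record start, and 85 fragments (67.9 to 105) 1005 bp past the start of its canonical transcript, in intron 1. WNT5A had 8 peaks in its extended record, 12.3 per 100 kb, at percentile 91.1.

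WNT6, at chr2:218859805-218874233 on the plus strand, had 50 fragments (37.1 to 65.9) and a fold enrichment of 6.29 in intron 1, 1400 bp past the TSS. The same peak falls in the extended record of its neighbour WNT10A, whose own start had none. WNT11 and WNT7B had 28 fragments each (18.6 to 40.5), 1819 bp past and 1908 bp before the TSS. The WNT11 and WNT7B intervals lie below those of WNT5A and WNT2B, and overlap that of WNT6.

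The 13 ligands without a peak in the start window had their nearest peak at a median of 8.49 kb from the TSS. This distance was not computed for other protein-coding genes, so it cannot be read as a trait of the ligands. For 7 of them it lay within 10 kb: WNT7A (5.36 kb), WNT8A (5.52 kb), WNT16 (5.54 kb), WNT3A (6.32 kb), WNT9B (6.98 kb), WNT3 (7.02 kb) and WNT8B (8.49 kb). The others were WNT10B (13.7 kb), WNT5B (14.8 kb), WNT9A (16.3 kb), WNT10A (19.4 kb), WNT4 (29.0 kb) and WNT2 (66.1 kb). The listed distances are from the start of the gene record. The records of WNT3 and WNT9B start head to head on chromosome 17, at 46833154 and 46833201. The peak nearest to both record starts is the same, with 46 fragments. Their canonical transcripts start farther apart, at 46818692 and 46851583, which is 14.5 kb and 18.4 kb inside the records. The WNT16 record starts 3.63 kb upstream of its canonical transcript. WNT5B had 16 peaks in its extended record, 15 of them inside the record, although none fell in the start window of the record or of the canonical transcript. Its tallest, 50.9 kb past the record start on chromosome 12, had 294 fragments (261 to 330) and a fold enrichment of 24.1. The canonical WNT5B transcript starts 99.3 kb past the record start. A peak of 198 fragments lay in its intron 3, with the summit 6214 bp past that canonical start. WNT8A had 7 peaks around a record of 8.38 kb, 14.5 per 100 kb (percentile 95.0), all of them outside the gene. WNT4, whose protein also signals outside the canonical branch, had 3 peaks, all beyond the 3′ end, with up to 181 fragments. WNT7B had 6 peaks, the tallest with 230 fragments 66.1 kb past the TSS.

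Among the antagonists, DKK proteins such as DKK1 block the LRP coreceptors, while SFRP proteins and WIF1 bind WNT ligands themselves. Of 4 DKK genes 1 had a peak in the start window and of 4 SFRP genes 2 did. SFRP2, at chr4:153780591-153789083 on the minus strand, had the tallest start-window peak of all members, from 153793912 to 153794740, with 163 fragments (139 to 190), 12.1-fold enrichment and a −log10 q of 85.2. Its summit lay 5124 bp upstream, outside the window, and only its edge fell inside. DKK2, at chr4:106921802-107283806 on the minus strand, had 52 fragments (38.8 to 68.2) 2089 bp upstream of the record start, 247 kb from its canonical transcript, which had no peak in its own window. SFRP1, at chr8:41261962-41309473 on the minus strand, had 21 fragments (13.0 to 32.1) 236 bp upstream, with a fold enrichment of 3.30, the lowest fragment count of the 22 strongest peaks. It was the only peak in the extended record of SFRP1, 1.14 per 100 kb.

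The nearest peaks of the other antagonists lay 5.55 kb from the TSS of DKK1, 6.82 kb from SFRP4, 10.6 kb from SFRP5, 11.4 kb from DKK4, 19.5 kb from WIF1 and 33.7 kb from DKK3. The SFRP4 distance is from the record start, which lies 109 kb upstream of its canonical transcript. The DKK1 peak, upstream of a gene that is itself a target of β-catenin, was the only one in its extended record and had 97 fragments (78.7 to 118). DKK3 had 4 peaks, and the tallest, beyond its 3′ end at chr11:11946179-11948049, had 340 fragments (305 to 378) and a fold enrichment of 31.4, at percentile 97.5 of genes ranked by the tallest peak. WIF1, with a record of 70.7 kb, had 1 peak, 0.904 per 100 kb. Peaks per 100 kb were below the median of all protein-coding genes at all 4 DKK genes and at 3 of the 4 SFRP genes.

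In the destruction complex, AXIN2, a scaffold and a widely used readout of canonical WNT activity, had the strongest peak in the start window. It is at chr17:65528563-65561648 on the minus strand. The peak was 1597 bp long, with 66 fragments (51.0 to 84.0), 7.94-fold enrichment and a −log10 q of 27.4, 518 bp past the TSS in intron 1. APC, which helps capture β-catenin, is at chr5:112707518-112846239 on the plus strand and had 29 fragments (19.4 to 41.6) 38 bp past the record start, with a fold enrichment of 2.48. At the promoter of the canonical APC transcript, 30.4 kb farther on and shown above, the peak had 93 fragments (75.1 to 114) and a fold enrichment of 9.91. The intervals of these 2 counts do not overlap. APC had 14 peaks in its extended record, and the tallest had 245 fragments in intron 6, with a fold enrichment of 30.04. AXIN1, the constitutive scaffold, had 0 peaks in its record and in its start window, and a peak of 181 fragments (156 to 209) and a fold enrichment of 26.9 lay 7.46 kb upstream.

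Among the nuclear effectors, the strongest peaks in the start window had 24, 33 and 53 fragments. All lay below the median of 54 at other genes with a peak. These heights rest on the record start. With the start of any transcript, the median over 4 nuclear effectors with a peak was 88 fragments, against 65 at other genes. With RefSeq records or the canonical start it was 43 against 54. TCF7L2, at chr10:112950247-113167678 on the plus strand, had 53 fragments (39.7 to 69.3) and a fold enrichment of 8.02 in exon 1, 632 bp past the TSS, and 22 fragments in intron 3. TCF7L1, at chr2:85133392-85310387 on the plus strand, had 33 fragments (22.7 to 46.3) 462 bp upstream with a fold enrichment of 2.81. LEF1, at chr4:108047545-108168956 on the minus strand, had 24 fragments (15.4 to 35.7) in exon 1, 474 bp past the TSS, and 17 fragments 4157 bp upstream. TCF7 had 0 peaks in its record, and its nearest, with 30 fragments, lay 40.9 kb past the TSS. CTNNB1, whose record begins 4764 bp before the canonical transcript, had 0 peaks in the start window of the record. At the canonical start the peak had 129 fragments (108 to 153), 8.71-fold enrichment and a −log10 q of 54.6, its summit 9 bp from the start site.

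The TCF and LEF genes, which encode the DNA-bound partners of β-catenin, differed inside the gene. TCF7L2 had 27 peaks in its extended record and TCF7L1 had 22, which is 10.5 and 10.1 per 100 kb (percentiles 84.9 and 83.5). LEF1, with a record of 121 kb, had 3 (1.86 per 100 kb, percentile 19.4), and TCF7 had 1. In TCF7L2 24 of the 27 peaks lay in introns of the canonical transcript, 15 of them in intron 5 with 19 to 210 fragments and 3 in intron 4 with 105 to 225. In TCF7L1 20 of the 22 lay in introns, 15 of them in intron 3 with 18 to 218 fragments. A fold enrichment of at least 10 was reached by 12 of the 27 peaks of TCF7L2, 7 of the 22 of TCF7L1 and 0 of LEF1 and TCF7. Among all peaks on the chromosomes, a fold enrichment of 10.1 stood at percentile 73.9. LEF1 and TCF7 had too few peaks for the 0 to be read as a difference.

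**Figure D4:**
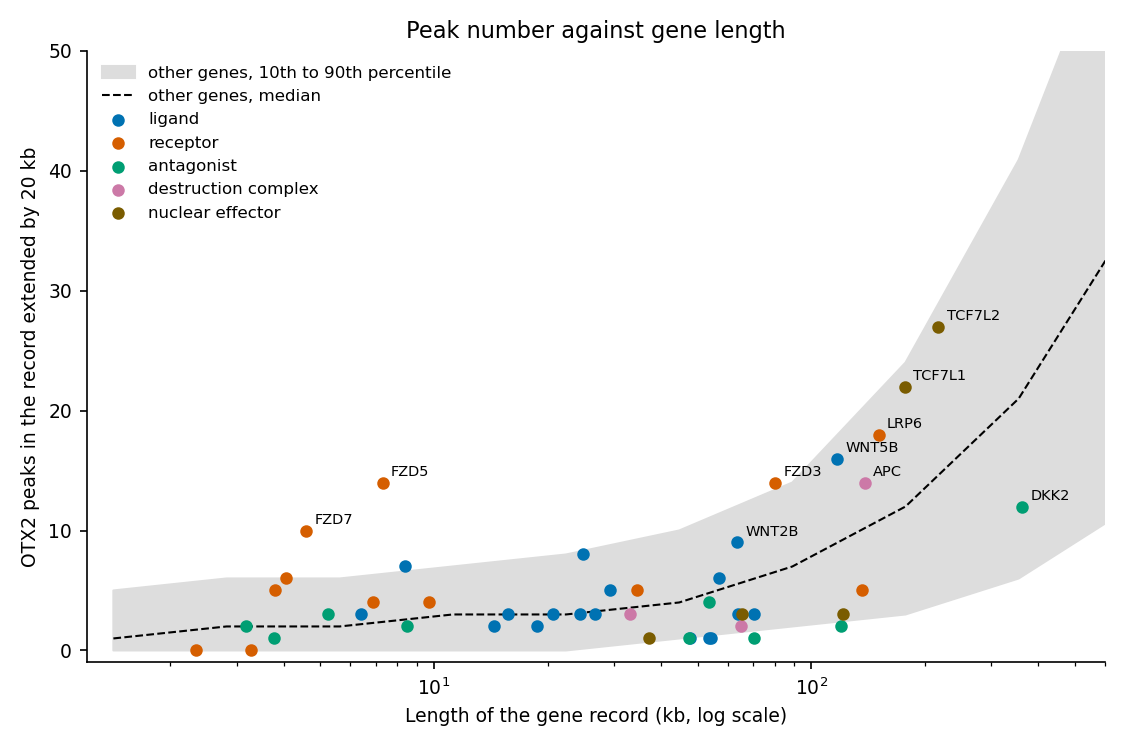
OTX2 peaks in the extended gene record against the length of the record (kb, log scale) for the 47 members, colored by role, with the median (dashed) and the 10th to 90th percentiles (grey) of other protein-coding genes. Genes with 9 or more peaks are named. FZD5 (14 peaks) and FZD7 (10) lie above the band at short lengths, and DKK2 (12) lies below the median of genes of its length.

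Several members could be read only with their surroundings. In 12 of them the record starts over 1 kb upstream of the canonical transcript, by up to 247 kb, and the canonical start gave 21 members with a peak in place of 22. WNT2, WNT16, FZD1, FZD9 and SFRP4 lie on chromosome 7, where 37.4% of the other genes had a peak in the start window and where 1 of these 5, FZD1, had one. Off chromosomes 7 and X the shares were 50.0% (21 of 42 members) and 59.5%. Peaks of chromosome 7 had a median local input of 3.99, close to the floor of 3.98 for this value, against 5.00 on the other autosomes. The part of this in the counts was not tested.

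A list of 49 further WNT pathway genes was read in the same way, and 29 (59.2%) had a peak in the start window, near the 57.2% of protein-coding genes outside the 47 members. The median height of their strongest peaks was 50 fragments. Nuclear cofactors such as the TLE corepressors and BCL9 had one in 9 of 10 genes, cytoplasmic transducers such as the DVL and GSK3 genes in 7 of 8, and the receptors ROR1, ROR2, RYK and PTK7 in 4 of 4. Planar polarity genes had one in 4 of 7, R-spondins and their receptors in 3 of 9, genes of WNT secretion and inactivation in 1 of 3 and further antagonists in 1 of 8. The tallest were at RSPO2, an R-spondin that enhances WNT signals, with 240 fragments (211 to 272) 653 bp past the TSS, at BTRC with 141 (119 to 166) and at TLE3 with 133 (111 to 158). The fold enrichments were 14.8, 11.6 and 19.8. The differences between these subgroups were not tested.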

How the data were processed

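OTX2 ChIP-Seq and input libraries of D283 tumorspheres were analysed, 1 each. The authors aligned the reads (Bowtie2 2.2.4, GRCh38) and called peaks against the input (MACS2 2.1.0.20140616, q-value cutoff 0.05, duplicates removed), and they state that blacklisted regions were masked. Per the file header, the deposited pileup is a coverage signal over each summit, scaled by the authors towards the smaller library. The deposited fold enrichment is the ratio of pileup plus 1 to local input plus 1, and significance was deposited as the −log10 of the q-value. Intervals of fragment counts are exact Poisson at 95%, for counting error only. All 137330 pileups on the chromosomes lay within 0.006 of a whole number of fragments.

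Gene positions were the GRCh38 positions recorded in GENCODE 44, so none was converted. Counts were made in Python 3.11.15 (pandas 2.3.3, numpy 2.4.6), intervals with scipy 1.17.1 and plots with matplotlib 3.10.9. Overlap counting was tested on simulated peaks. Members and lists were chosen with earlier results of these data known. Described in full were the 3 members of each role with the tallest peak in the start window, and members without one were named with their nearest peak. Motifs inside peaks were not analysed here, as the genome at hand was GRCh37. No set test was run.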

Additional observations from a re-analysis of the deposited data

How the results depend on the processing

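No paired analysis was possible because the design holds no replicates. The share of members with a peak in the start window was 29.8% with a fold enrichment of at least 5 (38.5% of other genes). Under the other 8 alternatives it stayed within the 95% binomial interval of its reported value (33.3% to 60.8%). The alternative with all annotated genes as background changed only the comparison genes, so the members' share could not move there. Against all annotated genes, 41.0% of which had a peak, the members' share was the higher. The share in the extended record was 53.2% with no extension and 72.3% with an extension of 5 kb, below the 69.5% and 78.4% of other genes. The median of peaks per 100 kb was 2.85 at that fold threshold, 1.65 with no extension and 2.96 with an extension of 5 kb (other genes 2.89, 4.67 and 5.36). The receptors' median of peaks per 100 kb was 0 with no extension, where the ligands' was above it. The median height of the members ran from 50 to 66 fragments under the 9 alternatives run for it. These values lie within the Poisson interval of a single count of 55 (41.4 to 71.6 fragments), which does not measure the spread between genes. The canonical transcript start was chosen after seeing the data. The alternatives for motifs in promoters were not run, since too few members had a promoter.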
